A study of Drosophila melanogaster with 8 samples.

Results

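Heads of flies warmed to activate their neurons were compared with heads of control flies that were not warmed. The fly genes described here have roles in neuronal wiring or in signalling at the cell surface: sanpodo (spdo, CG31020), meigo (CG5802), Mob2 (CG11711), Plexin A (PlexA, CG11081) and kekkon 1 (kek1, CG12283). These 5 of the 357 genes that could be named on the array were chosen by function and with their log2 signals in both groups in view, the values compared here. Their differences between the groups are therefore given as a description and not as tests. Probes whose target is a FlyBase transcript could not be named, so further probes of these genes may be missed. All probes tied to the 5 genes by a RefSeq transcript or cDNA clone were used. There are 6, and all 6 were well above background on all 8 arrays: 1 each for spdo (cDNA clone RE23355), meigo (transcript NM_001104383), PlexA (clone GM05237) and kek1 (clone SD01674), and 2 for Mob2, both designed on clone GH13236.

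The RNA came from whole heads of adult Drosophila melanogaster, reared at 23 °C, of the genotype w, elav-GAL4/+; UAS-dTrpA1/+. The elav-GAL4 driver is active in neurons and here drives the warmth-gated cation channel dTrpA1. The 4 activated_31C samples were kept at 31 °C for 1 h and dissected at once, and the 4 control_23C samples stayed at 23 °C. Each sample pooled 20 heads of both sexes and was hybridised to its own 1-colour array. Both groups carried driver and channel, so neural activity and warmth cannot be told apart, and the arrays of each group shared a slide, so a slide effect cannot be told apart from the group difference either. The question was which transcripts in the head respond within the hour to imposed neural activity.

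The proteins act at different steps of how a neuron takes on its identity and finds its partners. Notch is a receptor that sets daughter cells apart after an asymmetric division. Sanpodo is a transmembrane protein that binds Numb and promotes Notch signalling in the daughter that lacks Numb. Plexins are receptors for semaphorins, guidance cues that mostly repel axons, and PlexA is the receptor for the transmembrane semaphorin Sema1a. Kekkon 1 is a transmembrane protein with leucine-rich repeats that binds the EGF receptor and inhibits it. The other two are not surface proteins. Meigo resembles nucleotide-sugar transporters, resides in the endoplasmic reticulum and Golgi, and is known for its part in the targeting of dendrites in the olfactory system. Mob2 is a small intracellular partner of the NDR-family kinase Tricornered. The label of the group thus covers proteins of the surface, the secretory pathway and the cytoplasm.

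Transcripts for spdo, meigo and Mob2 were higher in activated_31C, PlexA was slightly lower, and kek1 did not pass the threshold. The fold was 8.29 for spdo, 2.40 for meigo and 1.91 for each probe of Mob2, and PlexA was 1.19-fold lower. Other genes overlap spdo and Mob2, as given below, so their probes may also read those genes. In the limma fit over all 22345 probes tested, with an adjusted p under 0.05 as the threshold, 4 of the 6 probes were higher and 1 was lower. Over all probes 43.3% passed, 19.3% higher and 24.1% lower. At least 2-fold, 2 of the 6 were higher, those of spdo and meigo, and 0 were lower, against 4.03% and 0.801% of all probes. The median difference was 0.93 on the log2 scale over the 6 probes and −0.0075 over all probes. The groups did not overlap for 5 of the 6 probes, against 42.9% of all probes. Since the genes were chosen with this contrast known, nothing is read from these counts.

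The head pools limit what the levels can say. In whole heads, a lower signal from fewer cells of a type and from less RNA per cell cannot be told apart. Of the 20 entries in the list of neuronal markers, which names cac in 2 spellings, 2 had a named probe that was tested. For glia, photoreceptors, fat body and muscle, 0 of those listed had a named probe. Probes of the other markers can lie among the many that could not be named. Both neuronal genes encode potassium channels. The log2 level of Sh fell by 0.16 (SE 0.0527, limma adjusted p = 0.0414), and slo differed by −0.0970 (SE 0.0585, adjusted p = 0.221). The call of Sh was lost in 10 of 19 alternatives, where its difference ran from −0.31 to −0.12, and slo passed without activated_31C replicate 2 (−0.15). Their part in the levels below was not tested. Between 22668 and 23615 of the 32162 probes were well above background on the activated_31C arrays, and between 21785 and 24237 on the control_23C arrays. The array of activated_31C replicate 3 deviated from its group mean as control_23C replicates 3 and 4 did from theirs. The correlations over probes were 0.65 with control_23C replicate 3 and 0.46 with replicate 4. With control_23C replicates 1 and 2 they were −0.65 and −0.50. The array of activated_31C replicate 4 deviated with those of control_23C replicates 2 (0.48) and 1 (0.39) and against replicates 3 (−0.51) and 4 (−0.28). Without the first 3 of these arrays, replicate 3 of both groups and control_23C replicate 4, the log2 difference was 3.13 for spdo, 1.32 for meigo, 0.96 and 0.97 for the probes of Mob2, −0.26 for PlexA and 0.04 for kek1, of which that of PlexA no longer passed the threshold.

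The Notch component spdo had the largest difference of the 5 genes. On a log2 scale relative to each array's 75th percentile, its level was −1.09, −1.25, −0.87 and −0.84 in activated_31C replicates 1 to 4, against −4.20, −4.19, −4.16 and −3.71 in control_23C replicates 1 to 4. The groups were 2.46 apart at their nearest arrays, and control_23C replicate 4 stood above the other controls. In the scanner's own units, the background-subtracted signal ran from 1998 to 2811 in activated_31C and from 288 to 377 in control_23C. The raw spot signal was 19.3 to 25.4 times its local background in activated_31C and 3.62 to 4.41 times in control_23C, so the gene was dim in control heads but measured in each. The mean level was −1.01 ± 0.19 in activated_31C and −4.07 ± 0.24 in control_23C (SD, n = 4 each), a log2 difference of 3.05 (SE 0.139). Of the 22345 probes, 176 differed by more in the same direction. Without control_23C replicate 4 the difference was 3.17. In RefSeq's list of genes for the Release 6 assembly, spdo overlaps PH4alphaEFB, which encodes a prolyl hydroxylase. That list gives no strand, so which of the 2 genes the probe reads is uncertain. PH4alphaEFB had no named probe of its own. None of the other 41 entries of the Notch pathway list, among them the receptor N, its ligands Dl and Ser, numb and the E(spl) targets, had a named probe, and they are not analysed here.

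**Figure D1:**
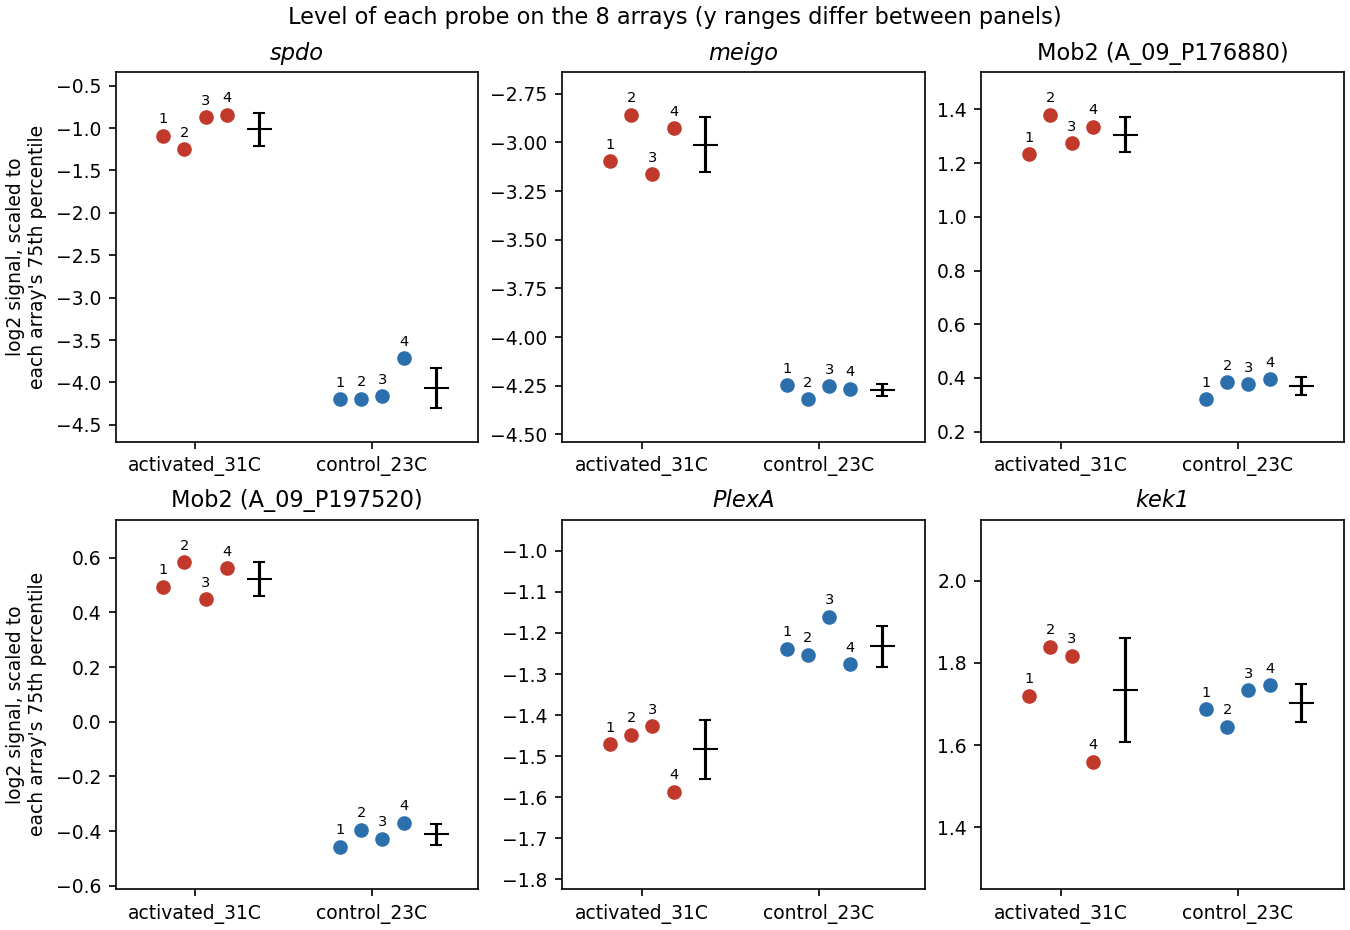
Level of each of the 6 probes on each array, as log2 processed signal relative to the array's 75th percentile. Points are single arrays marked with their replicate number, activated_31C in red on the left and control_23C in blue on the right, and black bars are the mean ± SD of 4 arrays. The groups are separate for spdo, meigo, both Mob2 probes and PlexA, which is the 1 gene with activated_31C below control_23C, and overlap for kek1.

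The transporter-like gene meigo was dim in control heads. Its level was −3.10, −2.86, −3.16 and −2.93 in activated_31C replicates 1 to 4, against −4.25, −4.32, −4.25 and −4.27 in control_23C replicates 1 to 4. The controls lay within 0.0716 of each other and the activated_31C arrays within 0.304, with replicates 2 and 4 above 1 and 3. The mean was −3.01 ± 0.14 in activated_31C and −4.27 ± 0.03 in control_23C (SD, n = 4 each), and the log2 difference was 1.26 (SE 0.0723). This probe was printed at 2 places on each array, and the spots gave differences of 1.24 and 1.28. The raw signal was 5.54 to 6.07 times the local background in activated_31C and 3.08 to 3.44 times in control_23C. With normexp background correction with an offset, applied to the median spot signal, the difference was 0.99. In the Release 6 list no gene overlaps meigo. The other 25 entries of the list on sugar-nucleotide transport in the endoplasmic reticulum and the unfolded protein response, such as Xbp1 and Hsc70-3, had no named probe.

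The kinase partner gene Mob2 was read by 2 probes placed apart on the array, and they gave nearly the same log2 difference, 0.94 (SE 0.0455) and 0.93 (SE 0.0457). On the probe A_09_P176880 the level was 1.23, 1.38, 1.27 and 1.33 in activated_31C replicates 1 to 4, against 0.32, 0.38, 0.38 and 0.40 in control_23C replicates 1 to 4. On the probe A_09_P197520 it was 0.49, 0.58, 0.45 and 0.56 in activated_31C, against −0.46, −0.40, −0.43 and −0.37 in control_23C. All activated_31C arrays lay above all control_23C arrays on both probes, by at least 0.84 and 0.82. Replicate 2 was the highest activated_31C array and replicate 1 the lowest control_23C array on each probe. The probes share a clone and the same RNA, so they are repeat readings and not replicates of the condition. The spread within groups was small, with a residual SD of 0.0514 and 0.0517 against a median of 0.113 over all probes. For spdo the residual SD was 0.215. In the Release 6 list Mob2 overlaps mir-4968 and CG7394, neither with a named probe, so its signal may include theirs.

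Of the other 18 entries of the list of Mob proteins and NDR or Hippo kinases, 1 had a named probe, and it was tested. Strip, a scaffold of the STRIPAK phosphatase complex, averaged −0.40 ± 0.04 in activated_31C and −0.37 ± 0.13 in control_23C (SD, n = 4 each). Its log2 difference was −0.03 (SE 0.0682, limma adjusted p = 0.768), with a 95% interval from −0.19 to 0.13. The kinase genes trc, wts and hpo and the Tricornered partner fry had no named probe.

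**Figure D2:**
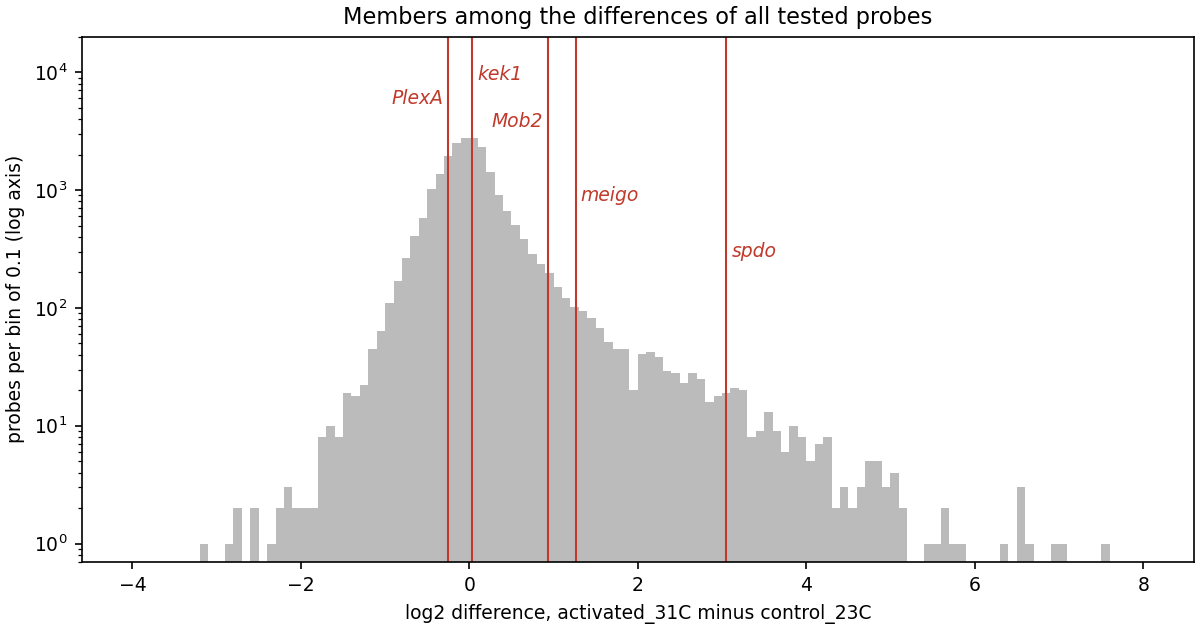
Histogram of the log2 difference, activated_31C minus control_23C, of the 22345 tested probes in bins of 0.1, with a log axis for the number of probes. Red lines mark spdo at 3.05, meigo at 1.26, Mob2 at 0.94 (probe A_09_P176880), kek1 at 0.03 and PlexA at −0.25. The first 3 of these lie in the right tail, and PlexA and kek1 in the body of the distribution.

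The semaphorin receptor gene PlexA differed in the other direction and by little. Its level was −1.47, −1.45, −1.43 and −1.59 in activated_31C replicates 1 to 4, against −1.24, −1.25, −1.16 and −1.28 in control_23C replicates 1 to 4. Every activated_31C array was below every control_23C array, with 0.150 between the nearest, about the range within activated_31C (0.160). The mean was −1.48 ± 0.07 in activated_31C and −1.23 ± 0.05 in control_23C (SD, n = 4 each), a log2 difference of −0.25 (SE 0.0505). The raw signal was 11.7 to 15.3 times the local background in activated_31C and 16.5 to 19.7 times in control_23C. The difference is smaller in size than the median absolute difference of 0.41 among all probes past the threshold. Centring the arrays on spike-in controls gave −0.40, and since that scaling moved the median of all probes to −0.16, relative to this median PlexA differed by −0.24. Quantile normalization gave −0.23 and moved the median of all probes to −0.08, and relative to that median PlexA differed by less, −0.15. No gene overlaps PlexA in the Release 6 list. The other 10 entries of the semaphorin and plexin list, among them Sema1a, PlexB and Mical, had no named probe.

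Neither of the 2 other guidance and partner-recognition genes with a named probe passed the threshold. The rest of the 47 entries in that list had no named probe and are not analysed here. The median difference of the 2 tested was 0.02, against −0.0075 over all probes. The leucine-rich repeat gene caps, known for matching photoreceptor axons to their targets, averaged −0.08 ± 0.09 in activated_31C and −0.02 ± 0.03 in control_23C (SD, n = 4 each). Its difference was −0.06 (SE 0.0520, limma adjusted p = 0.369), with a 95% interval from −0.18 to 0.06. The teneurin gene Ten-m, known for matching olfactory partner neurons, averaged −3.43 ± 0.05 in activated_31C and −3.53 ± 0.19 in control_23C (SD, n = 4 each). Its difference was 0.10 (SE 0.0952, adjusted p = 0.443), with a 95% interval from −0.12 to 0.32.

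The EGF receptor inhibitor gene kek1 overlapped between the groups. Its level was 1.72, 1.84, 1.82 and 1.56 in activated_31C replicates 1 to 4, against 1.69, 1.64, 1.73 and 1.74 in control_23C replicates 1 to 4. The activated_31C arrays held both the highest and the lowest of the 8 values, replicates 2 and 4. The mean was 1.73 ± 0.13 in activated_31C and 1.70 ± 0.05 in control_23C (SD, n = 4 each). The log2 difference of 0.03 (SE 0.0682) had a 95% interval from −0.13 to 0.19. It was −0.07 under quantile scaling and −0.12 when arrays were centred on spike-in controls, but these scalings moved the median of all probes to −0.08 and −0.16. Relative to that median kek1 differed by 0.01 under quantile scaling and by 0.04 under spike-in centring. The signal was strong, at 87.4 to 114 times the local background in activated_31C and 106 to 113 times in control_23C. The other 30 entries of the list of kekkon family and Egfr signalling genes had no named probe.

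**Figure D3:**
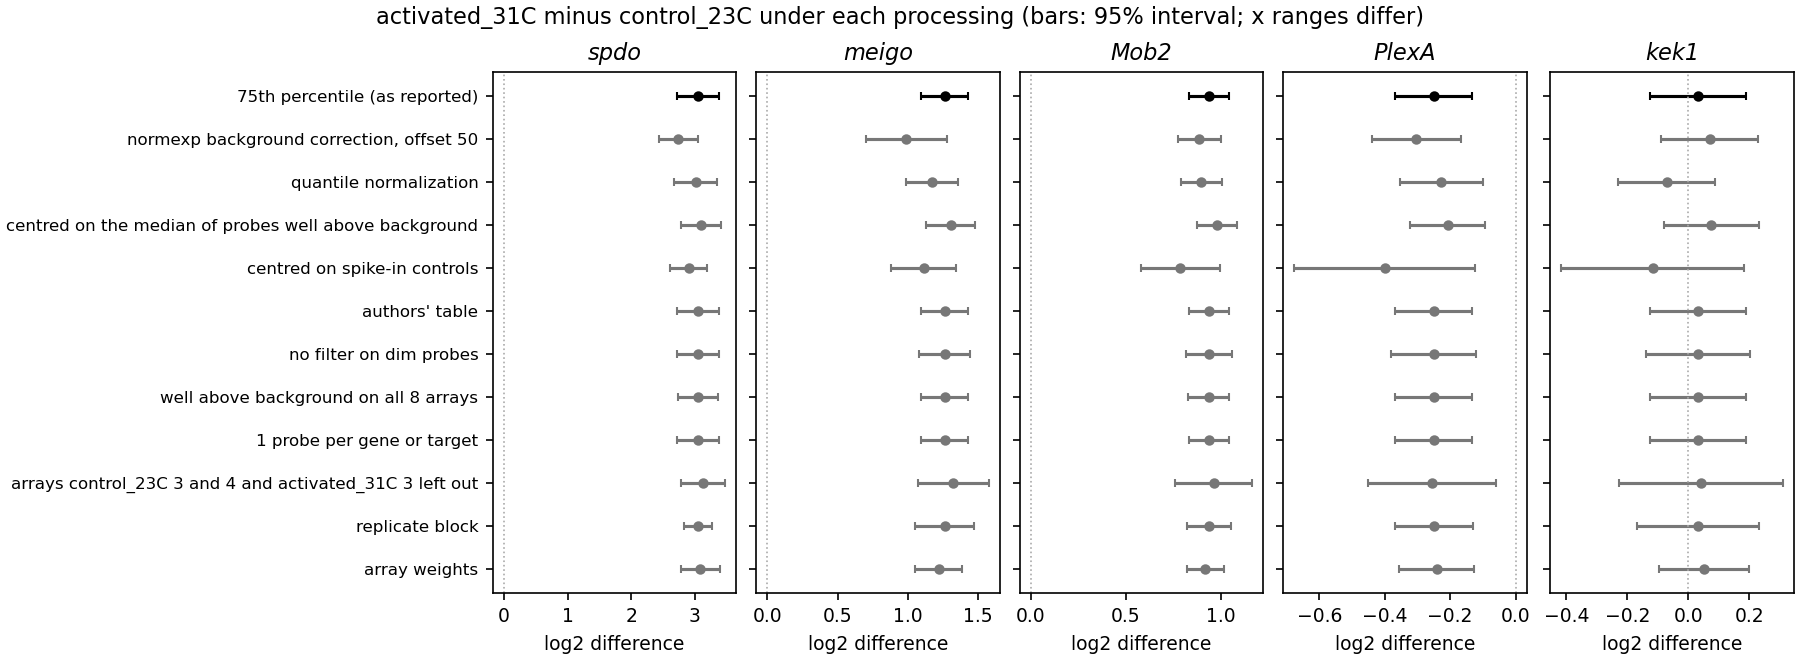
Log2 difference, activated_31C minus control_23C, of each gene under the reported processing (black) and 11 alternatives (grey), with 95% intervals from limma and a dotted line at 0. For Mob2 the probe A_09_P176880 is shown. The differences of spdo, meigo and Mob2 lie above 0 and those of PlexA below 0 in every setting drawn, and the intervals of kek1 include 0 in all of them.

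To describe which other genes shared these profiles, each gene's level was centred on its own mean over the 8 arrays, and the 261 other genes with a symbol and a tested probe were ranked by their root mean square difference from each member. The measure is small where both the group difference and the deviations of single arrays match. For spdo the nearest gene was CG7130, at 0.235, and CG7387 came next. On the control_23C arrays CG7387 never rose well above background, so its level there is only a bound and its distance is not given. CG7130, which encodes a DnaJ-type co-chaperone, averaged 1.34 ± 0.12 in activated_31C and −2.08 ± 0.16 in control_23C, and in both spdo and CG7130 control_23C replicate 4 was the highest control. For meigo they were Pdk, which encodes pyruvate dehydrogenase kinase, at 0.134, and lncRNA:CR32194, at 0.164. Both Pdk and meigo were highest in activated_31C replicate 2.

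For Mob2 the nearest were lncRNA:Hsromega, a long nuclear transcript that heat shock induces, at 0.0926, and CG4619, at 0.0955. The log2 difference was 0.77 (SE 0.0532) for lncRNA:Hsromega and 0.82 (SE 0.0728) for CG4619, beside 0.94 for Mob2. CG4619 missed the threshold with normexp background correction (0.39). For PlexA they were CG9951, at 0.0323, and the potassium channel gene Sh, at 0.0504. All 3 were lowest in activated_31C replicate 4 and highest in control_23C replicate 3. For kek1 they were Ziz, at 0.0228, and SPoCk, which encodes a calcium pump of the secretory pathway, at 0.0394. Neither passed the threshold, and replicate 4 was the lowest activated_31C array for all 3. These likenesses rest on 8 arrays in 2 groups on 2 slides, and any array-wide deviation enters all genes of an array.

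**Figure D4:**
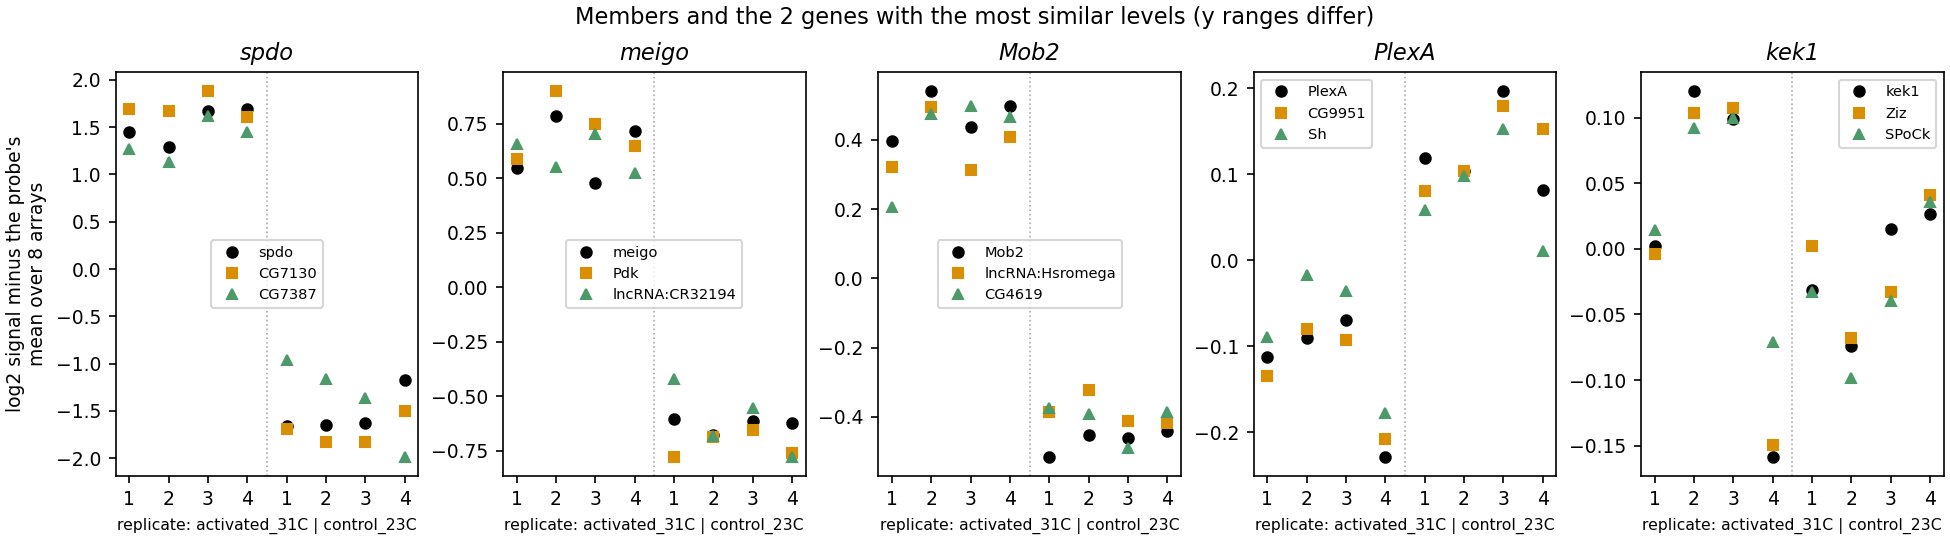
Log2 signal of each gene (black circles) and of the 2 genes with the smallest root mean square difference from it (orange squares and green triangles), each minus its own mean over the 8 arrays. Replicates of activated_31C are left of the dotted line and those of control_23C right of it. The control_23C points of CG7387 (beside spdo) were not well above background. Of the other pairs drawn, kek1 and Ziz differ least, at 0.0228, and spdo and CG7130 most, at 0.235.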

How the data were processed

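The deposited scanner files give the intensity of each spot. Per the file headers they come from version 10.7.3.1 of Agilent Feature Extraction, and the submitters' processing notes list 9.1.3.1. Labelling used Cy3 and 0.4 ug of RNA per the labels' protocols. The array's design is on build dm3 per the file headers. The authors' deposited table is on the log2 scale. It matched the log2 processed signal after 75th percentile scaling with each probe's median subtracted. The correlation over probes was 0.983 to 0.993 on the 8 arrays, and column medians ran from −0.0621 to 0.0378. This settles its centring and direction, but a correlation cannot settle its scale. On scale, its log2 differences were close to those reported here, at 3.05 for spdo and −0.25 for PlexA in both.

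Outlier-flagged and control spots were left out, log2 processed signals were averaged over a probe's spots, and each array's 75th percentile was subtracted. A probe was tested when it was measured on at least 6 arrays and, in 1 group or both, all its spots were well above background on each of the 4 arrays. Sample titles gave the groups. The fit used limma 3.58.1 under R 4.3.3 (lmFit, eBayes, two-sided, Benjamini-Hochberg over 22345 probes, threshold 0.05), with group as the only term. Differences are activated_31C minus control_23C, with limma's moderated SE. The labels call the samples independent, and 4 arrays per group limit the precision.

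Names came from RefSeq accessions and clone names in RefSeq's table for the assembly called Release 6 plus ISO1 MT. They tied 425 probes to 1 gene, 26 to several and 31711 to none. FlyBase transcripts were also looked up there, but probes whose target is one could not be named. Other probes of these genes can lie among the unnamed ones. No coordinates are given, since the builds differ, and no sequences were used here. The members and lists were chosen with earlier results of these data known. Named are all members, the tested genes of their lists, the 2 genes nearest each member and the genes that overlap one. On simulated data made from the 22345 probes of this comparison, 70.1% of 67 probes changed 1.5-fold, 92.5% of 67 changed 2-fold and 100% of 66 changed 4-fold were called, with 12 false calls. The changed probes were drawn after leaving out those with the largest residual SD, and the noise was independent between arrays. Deviations that real arrays share, and slide effects, were thus not simulated. Alternatives covered background correction, scaling, the authors' table, filters, the unit tested, arrays left out, a replicate block and array weights. The files hold no mean spot signal, so normexp used the median signal.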

Additional observations from a re-analysis of the deposited data

Results flagged for a closer look

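Among the 22 groups of 4 arrays checked, 2 held an array set apart from the remaining 3, where about 1.1 would be flagged by chance, at a rate of 1 in 20. The measure is the distance to the nearest array divided by the group's range. For the control_23C arrays of spdo it was 0.931, with replicate 4 highest, at −3.71, and 0.452 above the next. It was 0.849 for slo in activated_31C, where replicate 2 was the highest, at −0.91.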

How the results depend on the processing

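The differences of spdo (2.74 to 3.17), meigo (0.99 to 1.32) and both Mob2 probes (0.78 to 0.98) kept their direction and stayed past the threshold under every alternative run, of which testing 1 probe per gene leaves out the second Mob2 probe. PlexA ran from −0.40 to −0.21 and missed the threshold in 1 of 19 alternatives, the fit on 5 arrays that leaves out replicate 3 of both groups and control_23C replicate 4 (−0.256), where 0 of the 6 probes were lower. The sign of kek1 turned with quantile normalization (−0.0714) and spike-in centring (−0.118), which moved the median of all probes to −0.082 and −0.157, and relative to that median it stayed positive (0.0103 and 0.0391). It also turned without activated_31C replicate 2 (−0.00341), and it never passed the threshold. With each array left out in turn, the range was 2.99 to 3.17 for spdo, 1.21 to 1.31 for meigo, 0.91 to 0.96 for Mob2, −0.27 to −0.22 for PlexA and −0.0034 to 0.0898 for kek1.

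Over all probes, 4308 were higher and 5375 lower, and 44.5% of the changed probes were higher. Spike-in centring left 1955 higher (26.4% of the changed), quantile normalization gave 34.5% higher, median centring turned the balance, to 5178 higher and 4620 lower (52.8% higher), and the fit on 5 arrays left 2750 higher and 2636 lower. The replicate block gave 3910 higher and 4820 lower and changed no call among the members. Deviations of same-numbered arrays correlated from −0.277 to 0.651, which leaves pairing by number undecided. The authors' table gave the same member calls. Dim signal limits meigo and the control level of spdo.

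Of the other genes named, the sign turned, without passing the threshold, for Ziz with normexp correction (−0.0557), quantile normalization (−0.0952) and spike-in centring (−0.120), for SPoCk with quantile normalization (−0.0835) and spike-in centring (−0.0818), for Ten-m with spike-in centring (−0.0515), and for Strip with median centring (0.0147) and array weights (0.0109). Relative to the median of all probes, the sign was that of the reported difference under spike-in centring for Ziz (0.0364), SPoCk (0.0752) and Ten-m (0.105) and under median centring for Strip (−0.0207), while under quantile normalization Ziz (−0.0136) and SPoCk (−0.00185) stayed turned. Left-out arrays gave −0.00209 to 0.0834 for Ziz and −0.0689 to 0.0125 for Strip. CG7387, with only a bound in control_23C, missed the threshold with normexp correction, and CG9951 (−0.23) in the fit on 5 arrays.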
